A study of Homo sapiens with 4 samples.

Results

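Small nucleolar RNA (snoRNA) host genes carry snoRNAs in their introns. The 10 long non-coding host genes GAS5, ZFAS1, SNHG1, SNHG3, SNHG5, SNHG6, SNHG7, SNHG8, SNHG12 and SNHG16 were taken by name, as members of a known gene class, from the 26475 genes counted. No cutoff on their values was used, although earlier results of these data were known when the class was chosen, and all 10 had enough reads to be compared. Across the 4 libraries none of them moved past the call used here, a log2 ratio of 0.32 in either direction, when doxycycline was added to the cells with the TCOF1 guide. Few genes did, 3.67% of all tested genes being called higher and 5.26% lower. SNHG8 and SNHG12 were lower in the guide-carrying cells than in control cells already without doxycycline, to 0.564 and 0.571 of the control level. In that comparison 4.76% of all tested genes were called lower. Both hosts had the fewest reads of the members, and the SNHG8 call was lost with second-strand reads alone. With doxycycline in both cell groups, SNHG12 was short of the call, at a log2 ratio of -0.20. GAS5 was lower in the TCOF1-knockout mammospheres than in the doxycycline-treated controls, to 0.755 of that level, with its highest value in the treated controls. In that comparison 8.35% of all tested genes were called lower.

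RNA came from mammospheres, which are spheres grown from cells in suspension, of the triple-negative breast cancer line MDA-MB-468, which is basal-like, after 7 days of culture. All 4 cell groups carried Cas9 and a doxycycline-inducible guide construct and had been sorted by fluorescence, with no cloning step described. CTL were control cells without treatment, CTL+dox the same cells with doxycycline, gRNA2 cells with the inducible TCOF1 gRNA2 without treatment, and gRNA2+dox those cells with doxycycline, which induces the TCOF1 knockout. CTL, CTL+dox and gRNA2 are labelled wild type. Each condition had 1 library, from 6 to 7 plates pooled, so no value below has a replicate error and no p-value is given.

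When a host gene is transcribed and spliced, its introns are trimmed to snoRNAs, which act in the nucleolus as guides for the modification of ribosomal RNA. C/D box snoRNAs guide ribose methylation by fibrillarin, and H/ACA box snoRNAs guide pseudouridylation by dyskerin. The spliced exons of many host genes code for no conserved protein and are degraded by nonsense-mediated decay when translated, and many host transcripts begin with a run of pyrimidines, as those of ribosomal proteins do. TCOF1 encodes treacle, a nucleolar protein linked to transcription of ribosomal DNA by RNA polymerase I and to ribosomal RNA modification. In the study's triple-negative cells, TCOF1 knockout reduced neither the ribosomal RNAs measured nor ribosomal RNA integrity. The authors propose that this role depends on context. GAS5, ZFAS1, SNHG1, SNHG5, SNHG6 and SNHG16 host C/D snoRNAs, while SNHG3, SNHG7, SNHG8 and SNHG12 host mainly H/ACA snoRNAs.

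The start regions of the hosts whose values are discussed most are shown, with pyrimidine runs near the start marked. A marked run need not lie in the transcript. Sequences come from RefSeq (GRCh38.p14), which held a start region for 9 of the 10 genes. Each run covers the 40 bases before the start and the first 30 bases of the transcript, in the direction of transcription. Capitals mark TATAA between 40 and 20 bases before the start, and the longest unbroken run of at least 6 C or T bases that touches the stretch from 10 bases before to 30 bases after the start.
SNHG7: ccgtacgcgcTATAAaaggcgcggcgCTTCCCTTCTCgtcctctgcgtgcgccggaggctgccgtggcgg
SNHG8: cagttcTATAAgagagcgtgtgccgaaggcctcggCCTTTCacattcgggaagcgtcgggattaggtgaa
SNHG12: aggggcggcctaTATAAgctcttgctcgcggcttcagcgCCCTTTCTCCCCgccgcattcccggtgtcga
GAS5: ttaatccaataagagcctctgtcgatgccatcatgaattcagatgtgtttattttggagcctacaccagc
ZFAS1: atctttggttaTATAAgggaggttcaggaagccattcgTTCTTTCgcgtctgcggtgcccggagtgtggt
SNHG1: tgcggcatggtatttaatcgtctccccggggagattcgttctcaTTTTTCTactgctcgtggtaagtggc
SNHG16: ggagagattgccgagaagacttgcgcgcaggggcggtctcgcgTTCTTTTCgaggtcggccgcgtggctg

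These windows lie on GRCh38 at chr9:136728155-136728224 (reverse strand) for SNHG7, chr4:118278722-118278791 (forward) for SNHG8, chr1:28581844-28581913 (reverse) for SNHG12 and chr1:173869016-173869085 (reverse) for GAS5. Those of ZFAS1, SNHG1 and SNHG16 are chr20:49278602-49278671 (forward), chr11:62855856-62855925 (reverse) and chr17:76557724-76557793 (forward). TATAA was present on the transcribed strand of 5 of the 9 genes, namely ZFAS1, SNHG5, SNHG7, SNHG8 and SNHG12, against 4.07% of 27305 promoters in the table. On the opposite strand, where TATAA reads TTATA, 1 of the 9 (ZFAS1, a match that overlaps the first) and 1.58% of all promoters held it. A C or T run was present in 8 of the 9, the exception being GAS5 at the start used in this table, and in 41.8% of all promoters. The runs were longest in SNHG12 (12 bases) and SNHG7 (11 bases). That of SNHG7 lies wholly before the start used here, and that of SNHG8 has only its last base in the transcript. The 3 hosts called lower in the knockout than in untreated controls (SNHG7, SNHG8 and SNHG12) all had TATAA. So did ZFAS1 and SNHG5, which were not called in that comparison, at log2 ratios of 0.16 and -0.19. SNHG6, at -0.25, had no start region to search. A match to these letters is a description of the sequence only.

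Reads assigned to genes numbered 19960644 to 26322847 per library, and reads outside annotated genes made up 10.6% to 12.5%. In the order CTL, CTL+dox, gRNA2 and gRNA2+dox, TCOF1 had 1019, 754, 1318 and 437 reads, or 49.9, 33.5, 50.6 and 20.01 normalised CPM, which are read counts scaled to a common library size. TCOF1 was thus lowest in the knockout library, but was also lower in CTL+dox than in CTL by 0.58 on the log2 scale. The summed level of 7 epithelial and basal markers was 14799 to 16496 CPM, whereas ESR1 and PGR together stood at 0.154 to 0.832 CPM. Summed markers of leukocytes (4 genes), fibroblasts (4) and endothelium (3) did not exceed 12.6, 21.2 and 1.54 CPM. CPM were scaled with TMM factors and are not corrected for gene length, so levels are compared between libraries and not between genes. A gene was called higher or lower where its log2 ratio reached 0.32 in either direction and its exact 95% interval left out 0. The intervals hold counting error alone and so say how the libraries differed, not the conditions. In bulk RNA, fewer cells that express a gene and less of its RNA per cell cannot be told apart.

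Among the C/D hosts, GAS5, a transcript that accumulates in growth-arrested cells and hosts 10 snoRNAs listed here, was measured at 80.7, 99.9, 78.5 and 75.5 CPM in the same library order, from 1648 to 2251 reads. CTL+dox stood above the other 3 libraries, which lay close together. ZFAS1, which hosts SNORD12 family members, had 82.9, 96.3, 95.4 and 92.7 CPM, so CTL was the low library. SNHG1 had 91.1, 89.3, 89.95 and 91.7 CPM, the narrowest span of all members, with a highest-to-lowest ratio of 1.03. SNHG16, host of the SNORD1 snoRNAs, had 117.0, 130.1, 124.5 and 123.1 CPM, a ratio of 1.11. These genes rested on at least 1648 reads in every library, so counting error was small.

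SNHG5, host of SNORD50A and SNORD50B, had 11.9 CPM in CTL and 12.7 in CTL+dox, and 9.83 and 10.5 in gRNA2 without and with doxycycline (229 to 287 reads). Both gRNA2 libraries were below both CTL libraries. SNHG6, host of SNORD87, had 36.9, 37.7, 37.2 and 31.0 CPM (676 to 970 reads). The knockout library was the low one for SNHG6, and the other 3 lay together.

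Among the H/ACA hosts, SNHG3, which hosts SNORA73A and SNORA73B, had 9.45 CPM in CTL and 8.83 in CTL+dox, and 9.83 and 8.20 in gRNA2 without and with the drug (179 to 256 reads). In none of the 5 comparisons below did the interval of the SNHG3 log2 ratio leave out 0. SNHG7, host of SNORA17A and SNORA17B, had 41.9, 36.8, 33.8 and 30.7 CPM (670 to 881 reads). CTL was highest and gRNA2+dox lowest. SNHG8, host of SNORA24, had 6.07, 5.64, 3.42 and 3.85 CPM (84 to 127 reads), and SNHG12, host of SNORA16A, SNORA44, SNORA61 and SNORD99, had 8.08, 5.86, 4.61 and 5.08 CPM (111 to 165 reads). These had the widest spans of the 10, with highest-to-lowest ratios of 1.78 and 1.75, and also the fewest reads. For both, the gRNA2 libraries were below the CTL libraries.

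**Figure D1:**
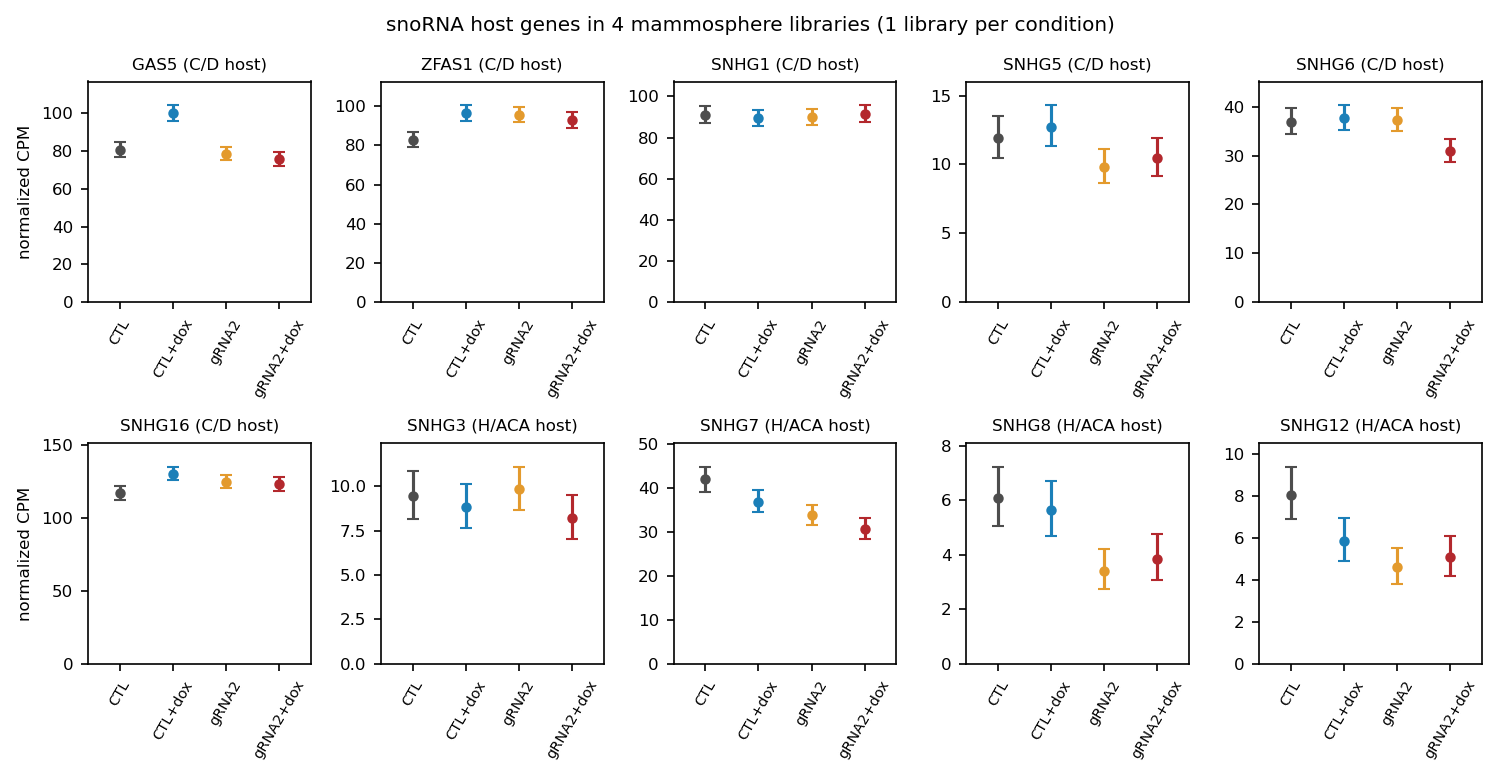
Normalised CPM (vertical axes, each from 0) of the 10 snoRNA host genes in CTL, CTL+dox, gRNA2 and gRNA2+dox. Points are single libraries and bars exact 95% Poisson intervals of the reads. SNHG1 is level across libraries, GAS5 is highest in CTL+dox, and SNHG8 and SNHG12 are lower in both gRNA2 libraries. For SNHG12, gRNA2+dox against CTL+dox was short of the call (log2 ratio -0.20).

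The comparison of gRNA2+dox with gRNA2 asks what the induced knockout did within the guide-carrying cells. None of the 10 hosts was called higher, beside 3.67% of the 15204 genes tested, and none lower, beside 5.26%. Log2 ratios ran from -0.27 to 0.17 with a median of -0.03, and the median of all tested genes was -0.02. SNHG6 had the lowest ratio, -0.27 (95% interval -0.41 to -0.12), and was the only member whose interval left out 0, though the ratio was -0.11 with the first-strand reads alone and -0.18 with both strand-wise counts summed. The next were SNHG3 at -0.26 (-0.55 to 0.02) and SNHG7 at -0.14 (-0.29 to 0.01). For the deeply counted hosts the intervals were tight around 0. They ran from -0.15 to 0.04 for GAS5, from -0.13 to 0.04 for ZFAS1, from -0.06 to 0.11 for SNHG1 and from -0.09 to 0.06 for SNHG16. The intervals of SNHG3, SNHG5 (-0.17 to 0.36), SNHG6, SNHG8 (-0.28 to 0.62) and SNHG12 (-0.24 to 0.53) reached past the call. Except for SNHG6 they also covered 0 and were too wide to tell a difference of the size of the call from none at this depth. TCOF1 itself had a log2 ratio of -1.34 (-1.50 to -1.18) between these libraries.

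Against CTL+dox, which matches the drug, 2 hosts were called lower in gRNA2+dox, beside 8.35% of all tested genes, and 0 higher, beside 7.25%. These were GAS5, with a log2 ratio of -0.41 (-0.50 to -0.31), and SNHG8, with -0.55 (-0.97 to -0.14). The SNHG8 value was -0.06, with its call lost, from first-strand reads alone, and -1.02 from second-strand reads alone. A further 4 members had intervals wholly below 0 without passing the call, SNHG6 at -0.28, SNHG5 at -0.28, SNHG7 at -0.26 and SNHG16 at -0.08. In all, 9 of the 10 ratios were below 0, where 49.8% of all tested genes were, and the exception was SNHG1 at 0.04 (-0.05 to 0.13). The median was -0.23, against 0.00 for all tested genes. With a 1.5-fold call, 0 members passed.

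Against untreated CTL, 3 hosts were called lower in gRNA2+dox, beside 6.78% of all tested genes, and 0 higher, beside 4.95%. All 3 are H/ACA hosts. SNHG7 had a log2 ratio of -0.45 (-0.60 to -0.30), SNHG8 of -0.66 (-1.08 to -0.25) and SNHG12 of -0.67 (-1.03 to -0.31). The call of SNHG7 was lost with second-strand reads alone (-0.32) and with a 1.5-fold call. ZFAS1 went the other way at 0.16 (0.07 to 0.26), short of the call, and SNHG6 was at -0.25 (-0.41 to -0.10). GAS5 had -0.10 (-0.20 to 0.00), so its distance from the knockout depended on which control library was used.

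The remaining comparisons show where those differences already stood without the knockout. Between gRNA2 and CTL, both untreated and with TCOF1 at a log2 ratio of 0.02 (-0.10 to 0.14), 2 hosts were called lower, beside 4.76% of all tested genes, and 0 higher, beside 4.2%. SNHG8 had a log2 ratio of -0.83 (-1.24 to -0.43) and SNHG12 of -0.81 (-1.16 to -0.46). With second-strand reads alone SNHG8 stood at -0.54 and its call was lost. SNHG7 (-0.31, interval -0.45 to -0.17) and SNHG5 (-0.28, -0.54 to -0.02) were below 0 and short of the call, though both were called when libraries were scaled by total counts alone, and SNHG7 also with DESeq2 size factors. ZFAS1 was at 0.20 (0.11 to 0.29) and SNHG16 at 0.09 (0.01 to 0.17). The C/D hosts had a median of 0.00 and the H/ACA hosts a median of -0.56, a description of 6 and 4 genes in which SNHG3, an H/ACA host, stood at 0.06 (-0.22 to 0.33).

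Between CTL+dox and CTL, which shows the drug in control cells, 1 host was called lower, beside 3.99% of all tested genes, and 0 higher, beside 3.55%. SNHG12 was the called gene, at -0.46 (-0.80 to -0.12) from 132 and 165 reads, and the call was lost with reads of the second strand alone. GAS5 lay just short of the call, 0.32, at 0.31 (0.22 to 0.40). ZFAS1 was at 0.22 (0.12 to 0.31) and SNHG16 at 0.15 (0.07 to 0.23), while SNHG7 was at -0.18 (-0.32 to -0.04). TCOF1 was called lower in this pair, at -0.58 (-0.71 to -0.44). Comparisons that share a library are not independent of each other, and the values are given side by side for that reason.

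**Figure D2:**
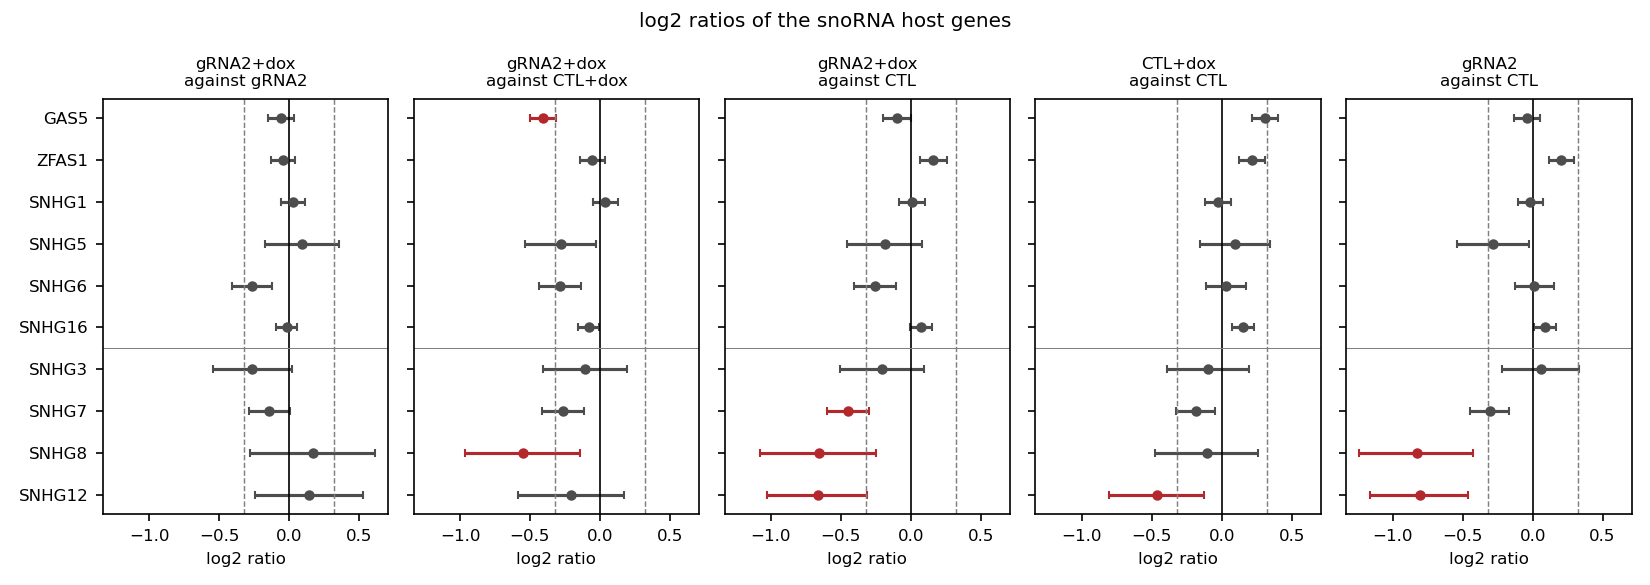
Log2 ratios (horizontal axes) of the 10 host genes in the 5 comparisons, with exact 95% counting intervals. C/D hosts are above the grey line and H/ACA hosts below it, dashed lines mark a log2 ratio of 0.32 in each direction, and called genes are red. No gene is red for gRNA2+dox against gRNA2, and SNHG8 and SNHG12 are red for gRNA2 against CTL.

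Taking the libraries by cell pool, both gRNA2 libraries were below both CTL libraries for 5 of the 10 hosts (GAS5, SNHG5, SNHG7, SNHG8 and SNHG12), as they were for 20.5% of all tested genes. Both were above both for 0 of the 10, against 24.8% of all tested genes. For GAS5 the gap was slight, since gRNA2 at 78.5 CPM and CTL at 80.7 CPM differed by less than counting error. For SNHG8 and SNHG12, the log2 ratio of gRNA2+dox to gRNA2 was above 0 (0.17 and 0.14), although its interval covered 0 in both. In gRNA2+dox against CTL+dox SNHG12 was not called, at -0.20 (-0.58 to 0.17). That ratio ran from -0.57 to 0.45 across ways of processing. For SNHG12, CTL+dox was itself below CTL, at -0.46.

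The doxycycline ratio differed between the cell pools for some of the hosts. The difference of the log2 ratios, gRNA2 cells minus CTL cells, was -0.37 for GAS5 (counting SE 0.07), -0.26 for ZFAS1 (SE 0.06), -0.30 for SNHG6 (SE 0.10) and -0.17 for SNHG16 (SE 0.05). For SNHG12 it was 0.60 (SE 0.25). Thus 4 of the 10 had an interval of the difference below 0, beside 15.3% of all tested genes, and 1 above 0, beside 11.6%. All 5 also had ratios of opposite sign in the cell pools, as 19.1% of all tested genes did with such an interval. In GAS5, ZFAS1 and SNHG16 the larger part of the difference came from a higher level in CTL+dox than in CTL. In SNHG6 it came from the lower level in gRNA2+dox. The other 5 hosts had differences whose 95% intervals covered 0, the narrowest being that of SNHG1, from -0.07 to 0.18.

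**Figure D3:**
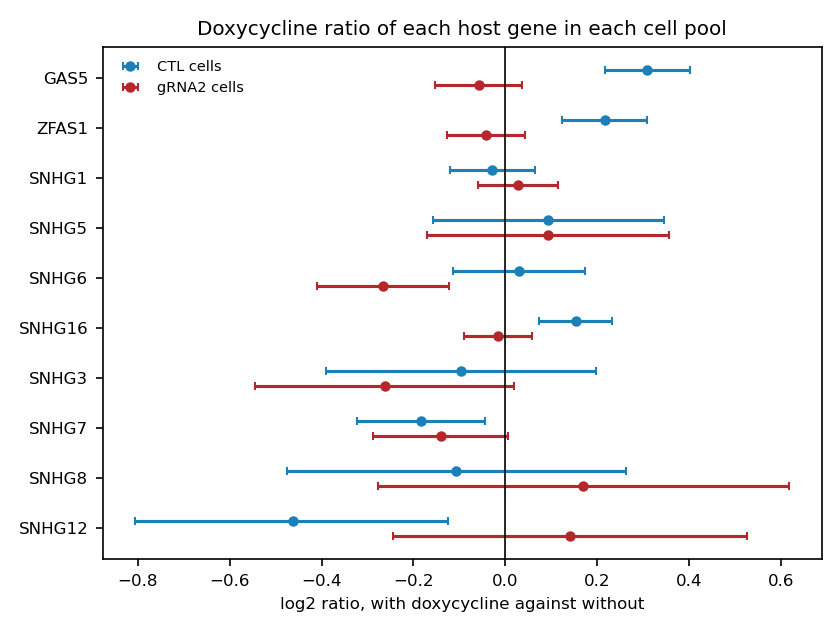
Log2 ratio of libraries with doxycycline to those without (horizontal axis) for each host gene, in CTL cells (blue) and gRNA2 cells (red), with exact 95% counting intervals. GAS5, ZFAS1 and SNHG16 lie above 0 in CTL cells and near 0 in gRNA2 cells, and SNHG6 lies below 0 in gRNA2 cells.

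Host genes lie close to other genes, and the reads carry no strand, so neighbours were examined at their RefSeq positions on GRCh38. SNHG8 spans chr4:118278762-118279823 on the forward strand, and PRSS12, which encodes the secreted serine protease neurotrypsin, ends 215 bases away on the reverse strand (chr4:118280038-118353003), so that their 3′ ends face each other. PRSS12 had 12.2 CPM in CTL and 14.1 in CTL+dox, against 5.07 and 2.38 in the gRNA2 libraries without and with doxycycline. The gene was called lower in gRNA2 than in CTL, at -1.27 (-1.59 to -0.96), as SNHG8 was. Unlike SNHG8 it was also called lower in gRNA2+dox than in gRNA2, at -1.08 (-1.58 to -0.62). Its part in the SNHG8 values was not tested.

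**Figure D4:**
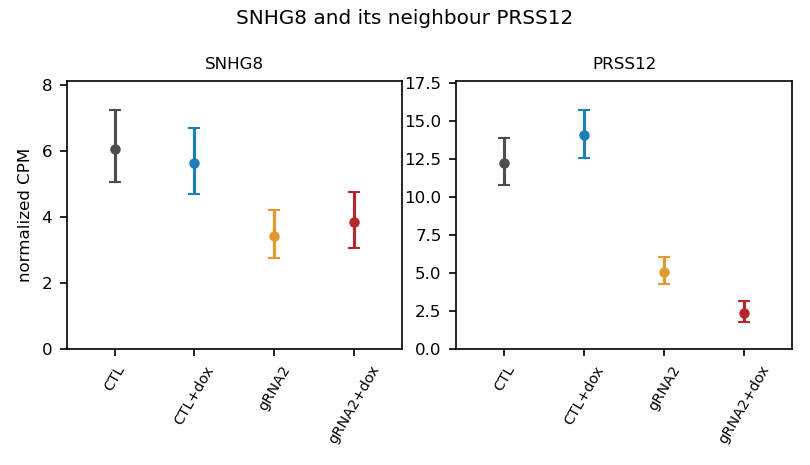
Normalised CPM (vertical axes, from 0) of SNHG8 and of its neighbour PRSS12 in the 4 libraries, with exact 95% Poisson intervals of the reads. Both genes are lower in gRNA2 than in CTL, and PRSS12 is lower again in gRNA2+dox.

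SNHG1 (chr11:62851978-62855885, reverse) starts 224 bases from SLC3A2, an amino acid transporter subunit, on the forward strand. SLC3A2 had a log2 ratio of -0.26 (-0.30 to -0.23) for gRNA2 against CTL, where SNHG1 was at -0.02 (-0.11 to 0.07). ZFAS1 (chr20:49278178-49289260, forward) lies 121 bases from ZNFX1, which was at -0.20 (-0.32 to -0.09) for gRNA2+dox against gRNA2, where ZFAS1 was at -0.04. SNHG3 (chr1:28505943-28510892, forward) overlaps RCC1, which encodes a chromatin-bound exchange factor for Ran and stayed between 39.6 and 41.8 CPM. SNHG12 (chr1:28578538-28582983, reverse) overlaps the end of TRNAU1AP, which was at 0.30 (0.03 to 0.58) for gRNA2 against CTL while SNHG12 was at -0.81. GAS5 (chr1:173863901-173869045, reverse) overlaps GAS5-AS1 and ZBTB37, which had at most 14 and 23 reads in a library. SNHG16 (chr17:76557764-76565348, forward) ends 29 bases from ST6GALNAC2, a sialyltransferase gene, which was at 0.16 (0.10 to 0.23) for gRNA2 against CTL. SNHG7 lies on chr9:136724594-136728184 (reverse) and SNHG5 on chr6:85677007-85678733 (reverse), and their nearest listed genes, LCN10 and SYNCRIP, were 9986 and 33137 bases away. Overlap bore most on SNHG6 (chr8:66921690-66925541), where MCMDC2 overlaps and the unstranded count was 79.6% of the sum of the strand-wise counts. It was 95.4% for SNHG7, 97.4% for GAS5 and at least 99.1% for the other 7. MCMDC2 itself had at most 3 reads in any library. Of the more distant neighbours, PHACTR4 was called lower in gRNA2+dox than in gRNA2 (-0.39). RAB42 was called lower in CTL+dox than in CTL (-2.95, from 1 and 10 reads), but reached the 10 reads needed for testing only in CTL.

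The snoRNAs themselves were barely counted. Of the 36 intronic snoRNAs of these hosts, 14 had 0 reads in every library and 3 reached 10 reads in any. Their summed reads were 75 and 73 in the CTL libraries without and with doxycycline, and 76 and 43 in the gRNA2 libraries. SNORD25, a C/D snoRNA in an intron of SNHG1, accounted for much of this, with 17, 24, 29 and 7 reads in the order given above. It was called lower in gRNA2+dox against gRNA2 (-1.73, interval -3.23 to -0.57), CTL+dox (-1.67, -3.19 to -0.47) and CTL (-1.32, -2.89 to -0.03), while SNHG1 was not called in any. In these comparisons 5.26%, 8.35% and 6.78% of all tested genes were called lower. All these SNORD25 calls rest on the same 7 reads in gRNA2+dox. SNORD25 reached the 10 reads needed for testing only in the other libraries, which favours a lower value. SNORA16A of SNHG12 had 10, 6, 6 and 1 reads and was called lower in gRNA2+dox against CTL (-2.92, -8.86 to -0.61). It reached the 10 reads needed for testing only in CTL, the library of that call, which favours a lower value. SNORA61 of the same host had 5, 10, 9 and 3 reads and was not called. Over all 411 snoRNA and small Cajal body RNA genes in the tables, of which 19 were tested, reads summed to 657, 644, 829 and 633. How far RNA this short was kept in library preparation is not given in the sources used here, so the counts describe these libraries and not snoRNA abundance.

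Other long non-coding hosts were compared in the same way, with 13 of the 16 found in the tables tested. In gRNA2+dox against gRNA2 none was called, beside 3.67% of all tested genes higher and 5.26% lower. The median log2 ratio was 0.05. Values ran from SNHG9 (-0.45, from 6 and 10 reads, tested only through its reads in gRNA2) to SNHG21 (0.64, from 42 and 32 reads). In gRNA2 against CTL, 4 were called lower, beside 4.76% of all tested genes, and 0 higher, beside 4.2%. Of the 13, 11 were below 0, where 44.5% of all tested genes were. The median was -0.24, against 0.03 for all tested genes. Named after their values were seen, the 4 were SNHG10 (-0.84), SNHG20 (-0.70), SNHG21 (-0.73) and EPB41L4A-AS1 (-0.43). Against CTL+dox 3 were called lower in gRNA2+dox, beside 8.35% of all tested genes. These were SNHG10 (-0.92), SNHG20 (-0.61) and SNHG32 (-0.41), also named after their values were seen. The first pair had at most 60 reads in a library. Against CTL, 1 of the 13 was called lower (SNHG32, -0.36), beside 6.78% of all tested genes. In CTL+dox against CTL, 1 was (SNHG22, -1.41, from 8 and 20 reads), beside 3.99%.

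Protein-coding hosts outside the ribosomal proteins (19 of 20 tested) had 0 calls in gRNA2+dox against gRNA2, with a median of -0.04, from EEF1B2 (-0.27), a translation elongation factor subunit that hosts C/D snoRNAs, to WDR43 (0.19), a factor for small subunit assembly. EEF1B2 was called lower against CTL+dox (-0.57) and CTL (-0.34), and WDR43 higher against CTL (0.34). The 22 ribosomal protein hosts likewise had 0 calls against gRNA2, with a median of -0.03, from RPL17 (-0.30, at most 39 reads in a library) to RPS12 (0.16). In that comparison 3.67% of all tested genes were called higher and 5.26% lower. Against CTL+dox, 21 of the 22 were below 0, where 49.8% of all tested genes were. Called lower were 3 (RPL3, RPS12 and RPSA, named after their values were seen), beside 8.35% of all tested genes. The median was -0.20, beside -0.23 for the 10 long non-coding hosts and 0.00 for all tested genes. RPL17 was called lower against CTL (-0.85). Of 14 translation genes that start with pyrimidines, 0 were called against gRNA2 (median -0.05, from EEF1B2 to EEF1A1 at 0.03). Against CTL+dox 12 were below 0 (median -0.13), where 49.8% of all tested genes were. In that comparison 2 were called lower, beside 8.35% of all tested genes, EEF1B2 and EIF3E (-0.39, named after its values were seen). EEF1B2 belongs to both lists.

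Few genes for proteins that bind and assemble snoRNAs passed the call. The lists are short, and 3.55% to 8.35% of all tested genes were called per direction and comparison. Among 8 core proteins 0 were called in gRNA2+dox against gRNA2, with a median of 0.03, from NOP10 (-0.08) to NHP2 (0.20), both subunits of the H/ACA particle. NHP2 was the only core protein called in any comparison, higher against CTL at 0.33. Of the 10 assembly factors none was called in the 5 comparisons, and values against gRNA2 ran from NUFIP1 (-0.28) to ZNHIT3 (0.14), which work together in C/D particle assembly. Of 10 nonsense-mediated decay factors, 0 were called against gRNA2, from UPF2 (-0.25) to SMG8 (0.89, from 16 and 10 reads). SMG1, the kinase of that pathway, named after its values were seen, was called higher in gRNA2+dox against CTL+dox (0.66) and CTL (0.52) and stood at 0.24 against gRNA2. No gene of these lists was called in all 3 comparisons of the knockout library.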

How the data were processed

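RNA was sequenced from 4 MDA-MB-468 mammosphere libraries, 1 per condition. By the study's methods, the authors trimmed reads with fastp and aligned them with STAR. They deposited raw read counts per gene, unstranded and by strand. The build is hg38 per the labels, and the annotation version is not given in the sources used here. STAR counts only reads that map to 1 place. Unstranded counts were used, since first-strand reads made up 49.0% to 49.1% of stranded counts. The 4 summary lines of each file stayed out of library sizes.

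Counts were scaled with TMM (edgeR 4.0.16, R 4.3.3), and log2 ratios used a prior count of 0.5. Genes with at least 10 reads in at least 1 library were tested, 15204 of 26475. Intervals are exact 95% Clopper-Pearson intervals of a pair's reads (Python 3.11.15, scipy 1.17.1), and the code was tested on simulated data. Precision follows the reads on each gene. A count of 3 reads corresponds to 0.115 to 0.147 CPM.

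The members and gene lists were chosen with earlier results of these data known. Named were all members, TCOF1, the lowest and highest gene of each list in gRNA2+dox against gRNA2, list genes called in all 3 knockout comparisons, nearest genes and intronic snoRNAs. RefSeq (GRCh38.p14) gave positions, promoters and older symbols. SNHG14, SNHG26 and SNHG30 were not matched. Size factors of DESeq2 1.42.0, total counts, other filters and prior counts, thinning, the strand columns and other call rules were tried as alternatives. The GFOLD and gene set analyses of the study were not repeated.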

Additional observations from a re-analysis of the deposited data

Results flagged for a closer look

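For 5 hosts the log2 ratio of doxycycline to no doxycycline had opposite signs in the gRNA2 and CTL cells, with a counting interval of the difference that left out 0, as 19.1% of all tested genes had. In each of the 5, the interval of 1 of the ratios covered 0, so the opposite signs themselves are within counting error. The difference (gRNA2 cells minus CTL cells) was -0.37 for GAS5, from -0.06 and 0.31, and -0.26 for ZFAS1, from -0.04 and 0.22. It was -0.3 for SNHG6, from -0.27 and 0.03, and -0.17 for SNHG16, from -0.02 and 0.15. For SNHG12 it was 0.6, from 0.14 and -0.46. With 1 library per condition the difference was not tested against replicate spread. With single-strand reads the ratio in gRNA2 cells turned to 0.02 for SNHG16 (first strand) and 0.0038 for ZFAS1 (second strand), so that its sign matched the CTL cells. Across the other ways of processing that could change them, the differences ran from -0.39 to -0.28 for GAS5, -0.27 to -0.22 for ZFAS1, -0.31 to -0.19 for SNHG6, -0.18 to -0.11 for SNHG16 and 0.27 to 1.2504 for SNHG12. Reads of the first strand made up 31.1% of SNHG12's stranded reads in CTL+dox and 44.2% to 47.8% in the other libraries, and the part of this in its value was not tested.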

How the results depend on the processing

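Of 170 medians and call counts recomputed under 12 alternatives, 161 were kept. For a median this meant a move no larger than the median half-width of the single hosts' intervals. For a call count it meant staying within 1.5 times. The alternatives that changed only the read filter could not move any of these, since every host passed each filter. Of 480 ratios and differences of single hosts, 461 stayed within the main interval, and no called ratio reversed its sign. The count of hosts called lower in gRNA2 against CTL was 4 in place of 2 with total counts only, after thinning to the smallest total and with the first-strand column, where SNHG5 and SNHG7 joined SNHG8 and SNHG12. With the first-strand column, 1 host was called lower in gRNA2+dox against CTL+dox, where SNHG8 was lost, and 1 higher and 3 lower in CTL+dox against CTL. With the second-strand column 0 were called lower in CTL+dox against CTL, SNHG7 was lost in gRNA2+dox against CTL, and in gRNA2 against CTL SNHG7 was called in place of SNHG8. With a 1.5-fold call 0 were lower in gRNA2+dox against CTL+dox and 0 in CTL+dox against CTL. A strand column holds only a part of each gene's reads, so fewer reads stand behind these values. In gRNA2+dox against gRNA2 no host was called under any of the 12 alternatives, with medians from -0.04 to 0.00. The filter settings and the 1.5-fold call could not have added a call there. Medians against CTL+dox ran from -0.28 to -0.10. TMM factors from the tested genes alone, chosen after seeing the data, moved none of these counts past 1.5 times.

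Over all genes, total counts moved the split of calls from 638 higher and 724 lower to 435 and 968 in gRNA2 against CTL, from 752 and 1031 to 538 and 1379 in gRNA2+dox against CTL, and from 539 and 606 to 423 and 766 in CTL+dox against CTL. With the fold alone and no interval, 1328 and 1830 genes passed in gRNA2+dox against gRNA2, in place of 558 and 800, and with 1.5-fold 259 and 363. In the other comparisons the fold alone gave 1975 and 2272 (main 1102 and 1270) against CTL+dox, 1580 and 2126 against CTL, 1437 and 1596 in CTL+dox against CTL, and 1526 and 1652 in gRNA2 against CTL. The 1.5-fold call gave 394 and 636, 292 and 567, 220 and 256, and 235 and 383 in that order. No paired analysis was possible because there was 1 library per condition, and for that reason no library could be left out of a condition. Depth limits SNHG3, SNHG8 and SNHG12 most.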
